A study of Homo sapiens with 6 samples.

Results

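CDH5, KDR and ACE are genes tied to endothelial identity, and CDH5 and KDR also to vascular mimicry, in which tumour cells line channels without endothelium. HEY1 is a target of Notch signalling. These genes were chosen by name, and all 4 have a row among the 1630 genes of the deposited table. RNA was sequenced from U87MG, an established human glioblastoma line, in 6 libraries. Of these, 3 carried a control short hairpin RNA (shControl, genotype NC) and 3 a hairpin against CREPT (shCREPT, genotype CREPT Knockdown). CREPT, the product of RPRD1B, is a cofactor of RNA polymerase II that binds its C-terminal tail. No other treatment is named, and the labels do not say whether the 3 shCREPT libraries carry the same hairpin or whether libraries of a group came from separate cultures. The p-values therefore measure only how far these libraries differ, and that spread may be technical.

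CDH5 encodes VE-cadherin, the adhesion molecule that joins endothelial cells to each other. KDR encodes VEGF receptor 2, the main signalling receptor for VEGFA on endothelium. ACE encodes angiotensin-converting enzyme, a surface peptidase of vascular endothelium that forms angiotensin II and degrades bradykinin. HEY1 encodes a basic helix-loop-helix repressor that is a direct target of Notch signalling and also responds to BMP signalling. In developing vessels Notch and VEGF signalling restrain and feed each other, and glioblastoma cells have been described that carry some of these endothelial genes.

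The RefSeq promoter table (GRCh38.p14) has entries for 2 of the 4 genes, 1 for KDR and 2 for ACE. The bases before each start are shown because both genes were lower in shCREPT, and because ACE has a second start inside the gene, known for the testis form of the enzyme, which a gene-level value cannot tell from the first. Each line gives the 250 bases before the start, 5′ to 3′ on the gene's strand. Capitals mark GGAA, the core letters bound by ETS factors, on either strand (TTCC where it lies on the other strand).
KDR promoter, chr4:55125596-55125845, minus strand: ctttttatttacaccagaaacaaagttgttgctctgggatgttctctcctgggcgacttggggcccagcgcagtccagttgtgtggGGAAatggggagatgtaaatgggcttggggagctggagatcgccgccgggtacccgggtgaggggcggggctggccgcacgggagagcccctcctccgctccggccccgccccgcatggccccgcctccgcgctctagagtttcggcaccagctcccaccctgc
ACE promoter at the first start, chr17:63476811-63477060, plus strand: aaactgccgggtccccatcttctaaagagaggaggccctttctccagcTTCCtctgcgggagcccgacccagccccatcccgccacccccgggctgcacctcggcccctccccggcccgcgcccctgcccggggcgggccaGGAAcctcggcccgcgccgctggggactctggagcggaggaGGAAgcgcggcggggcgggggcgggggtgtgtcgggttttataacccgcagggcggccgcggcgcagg
ACE promoter at the inner start, chr17:63484596-63484845, plus strand: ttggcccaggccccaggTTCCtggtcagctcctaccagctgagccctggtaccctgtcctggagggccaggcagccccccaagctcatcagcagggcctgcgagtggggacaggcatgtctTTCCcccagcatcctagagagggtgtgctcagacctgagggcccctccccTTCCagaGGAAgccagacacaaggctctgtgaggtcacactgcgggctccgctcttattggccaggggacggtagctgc
The KDR window holds 1 GGAA match, the first ACE window 3 and the inner ACE window 4, while 92.7% of 35116 windows of this length in the table hold at least 1, with a median of 3. GGGCGG, the box of SP family factors, occurs 2 times before KDR and 4 times before the first ACE start, and it occurs in 42.6% of all windows. It was not found before the inner ACE start. TGGGAA, the letters of the Notch effector RBPJ (which contain GGAA), occur in 20.8% of all windows and in none of these 3. CACGTG (6.34% of windows), ACGTG (18.5%, also contained in CACGTG) and GCGTG (32.2%) were not found either. All motifs were searched on both strands. GC content was 65.2% before KDR, 75.2% before the first ACE start and 64.8% before the inner one, against a median of 58% over all windows. These matches describe letters only and show no binding.

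The value in each library is the authors' normalized expression value. Its unit is not stated and the depth is unknown. Levels of different genes are therefore not ranked against each other here. Ratios and sums of genes are read between the groups, and the make-up of a sum refers to deposited values only. Over all rows the sum was 31893.69 to 33330.8 in a library, and the mitochondrial ribosomal RNA MT-RNR1 lay at 3038.14 to 3497.15 in shControl and 5918.53 to 6891.8 in shCREPT. RPRD1B, the target of the hairpin, has no row among these genes listed as changed. Whether its transcript fell in shCREPT is therefore unknown, and the knockdown was not checked. Every row carries the authors' mark of significance, so being listed already means a difference between these groups. No row has an authors' log2 fold smaller than 1.00095 in size, so the sizes of change also come from a selected range. The tests below describe sizes within this selected table. The endothelial identity of the samples was set against 15 endothelial markers other than the 4 genes. Of these, 13 have no row, among them PECAM1, VWF, TEK, TIE1, CLDN5 and ERG, and the lack of a row leaves its expression unknown. In RNA of a whole culture, fewer cells that carry a transcript and less transcript per cell cannot be told apart.

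By position the genes lie on 4 chromosomes. In GENCODE v29 on GRCh38, the build named in the submitters' processing notes, CDH5 (ENSG00000179776) spans chromosome 16, 66366622 to 66404786, plus strand. KDR (ENSG00000128052) spans chromosome 4, 55078259 to 55125595, minus strand. ACE (ENSG00000159640) spans chromosome 17, 63477061 to 63498380, plus strand, and HEY1 (ENSG00000164683) chromosome 8, 79764010 to 79767863, minus strand. The annotation sets limits on the gene-level values. KDR shares 14276 bases with the antisense gene AC111194.2 on the opposite strand, and no source used here says whether the counting kept strand. ACE shares 13558 bases with AC113554.1, a protein-coding gene on the same strand, so how reads there were assigned is uncertain. Neither overlapping gene has a row.

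All 4 genes were lower in every shCREPT library than in every shControl library. HEY1 and CDH5 kept 19.2% and 21.4% of their shControl means, ACE kept 34.3% and KDR 47.3%. All 4 passed limma on log2(value + 1) at an adjusted p under 0.05, a call that 57.3% of the 1184 tested genes also got in this direction and 97.9% in either direction. Groups that did not overlap, with shCREPT lower, were seen in 56.6% of the tested genes. With shares this high the count of 4 of 4 is read as a description. The sizes and their spread are given for each gene, and the sizes too were limited from below by the selection.

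The VE-cadherin gene CDH5 stood at 32.75, 33.94 and 33.3 in shControl replicates 1 to 3 and at 7.83, 6.72 and 6.89 in shCREPT replicates 1 to 3. The 3 shControl values lay close together, and the lowest of them was 4.18 times the highest shCREPT value. The mean went from 33.3 ± 0.596 to 7.15 ± 0.598 (SD, n = 3), which is 4.66-fold lower. The log2 change was −2.08 ± 0.09 (SE; limma adjusted p = 5.22e-06). CDH5 had the lowest relative spread of the 4 genes in both groups, with a coefficient of variation of 1.79% in shControl and 8.37% in shCREPT.

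KDR, the VEGF receptor gene, had values of 10.53, 11.32 and 11.52 in shControl and 5.83, 4.92 and 5.05 in shCREPT. The groups were apart by 4.7, with the lowest shControl value 1.81 times the highest shCREPT value, the narrowest relative gap of the 4 genes. The mean went from 11.1 ± 0.523 to 5.27 ± 0.492 (SD, n = 3), 2.11-fold lower. The log2 change was −0.95 ± 0.09 (SE; limma adjusted p = 7.02e-05). Median-of-ratios rescaling, which centres the libraries on the typical gene of the table, ended this call, with a log2 change of −0.17 and limma adjusted p = 0.123 (1.36e-05 to 0.123 over the alternatives).

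ACE, the converting enzyme gene, was at 4.27, 4.66 and 4.25 in shControl and at 1.03, 1.59 and 1.9 in shCREPT. Replicate 1 of shCREPT was the lowest, and the highest shCREPT value was 1.84 times the lowest, the widest relative spread of the 4 genes (coefficient of variation 29.3%, against 5.26% in shControl). The mean went from 4.39 ± 0.231 to 1.51 ± 0.441 (SD, n = 3), 2.92-fold lower. The log2 change was −1.12 ± 0.14 (SE; limma adjusted p = 0.000262). With a pseudocount of 0.1 the change was −1.52 and with 5 it was −0.53, and ACE kept its call in each.

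HEY1, the Notch target, stood at 15.17, 15.09 and 13.2 in shControl and at 2.37, 2.98 and 2.99 in shCREPT. Every shControl value was at least 4.41 times every shCREPT value, the widest relative gap of the 4 genes. The mean went from 14.5 ± 1.11 to 2.78 ± 0.355 (SD, n = 3), 5.21-fold lower. The log2 change was −2.04 ± 0.11 (SE; limma adjusted p = 9.18e-06).

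**Figure D1:**
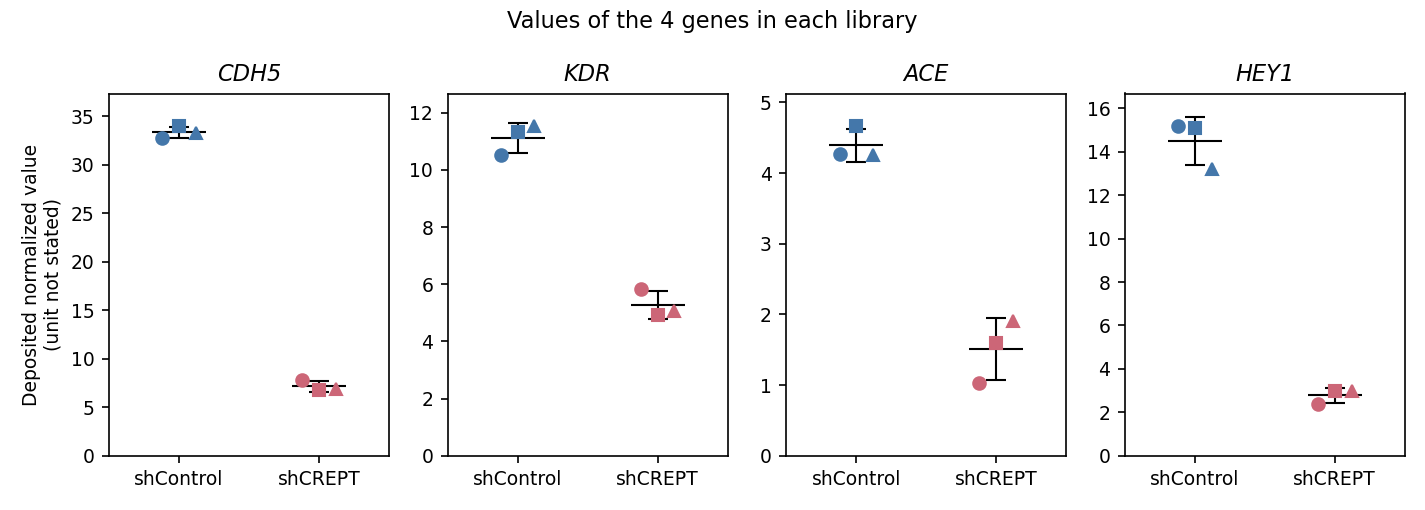
Deposited normalized value (vertical axis, linear, unit not stated) of CDH5, KDR, ACE and HEY1 in 3 shControl and 3 shCREPT libraries. Circles, squares and triangles are replicates 1, 2 and 3, and the black line and bar are the mean and SD; in each panel all shCREPT points lie under all shControl points, and ACE has the widest relative spread in shCREPT.

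An exact two-sided permutation test over libraries gave p = 0.1 for each of the 4 genes, the smallest that 3 against 3 allows. In the authors' deposited table the log2 folds are −2.25 for CDH5, −1.05 for KDR, −1.71 for ACE and −2.50 for HEY1, the same order as the linear ratios. On the log2(value + 1) scale 46 of the 1184 tested genes fell more than CDH5 and 49 more than HEY1, against 331 for ACE and 465 for KDR. The median change was −1.58 over the 4 genes and −0.76 over all tested genes. The median over the 689 tested genes with a lower mean in shCREPT was −1.10. CDH5 and HEY1 lay past it, ACE lay near it and KDR fell short of it. On this scale changes of small values come out too small, and ACE had −1.52 with a pseudocount of 0.1. The scale also puts CDH5 before HEY1, the reverse of the linear ratios. The ranks and the medians over tested genes refer to listed genes only, whose authors' folds share a lower limit. The authors' fold of KDR lies close to that limit.

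**Figure D2:**
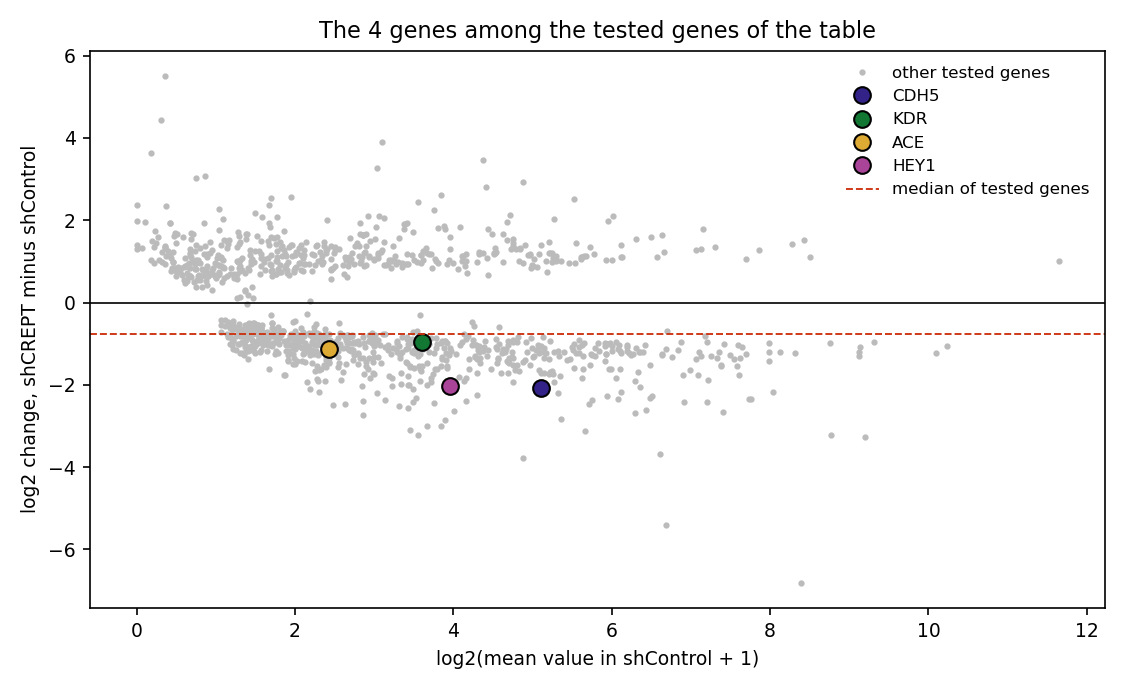
Each point is 1 tested gene, with log2 of its mean shControl value plus 1 (horizontal) and its log2 change, shCREPT minus shControl (vertical); the dashed line is the median of −0.76. CDH5 and HEY1 lie near −2 and KDR and ACE near −1, inside the band of falling genes.

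The scaling of the libraries bears on each fall. Median-of-ratios rescaling moved the median of the tested genes from −0.76 to −0.12, and quantile normalization moved it to −0.52. The median-of-ratios factors were taken from the listed genes alone, and of the 1184 tested 678 were called lower and 481 higher. Between the groups these factors differed by a mean log2 of 0.885, which moved changes upward. A call lost under this rescaling depends on that centring. Under median-of-ratios rescaling CDH5 had a log2 change of −1.25 and HEY1 of −1.29 (limma adjusted p = 1.24e-05 and 4.72e-05). Of the tested genes, 31.3% were called lower under it. ACE had −0.49 (limma adjusted p = 0.0255) and KDR, as given above, lost its call. Under quantile normalization the changes were −1.85 for CDH5, −1.82 for HEY1, −0.87 for ACE and −0.82 for KDR. A pseudocount of 5 took HEY1 to −1.32 and one of 0.1 to −2.35.

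**Figure D3:**
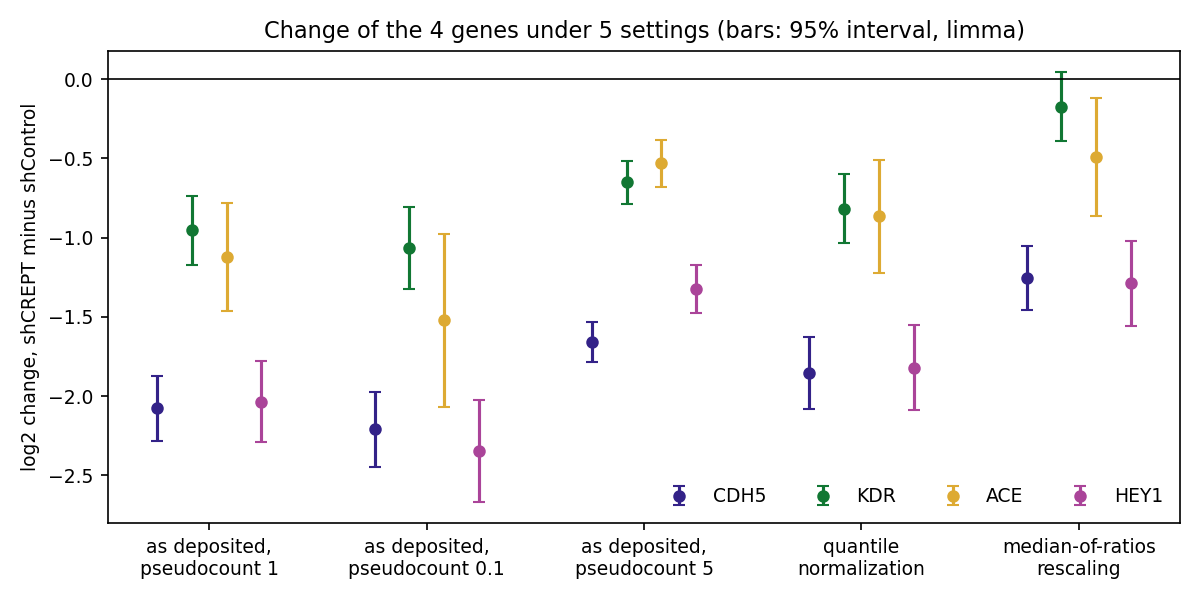
Log2 change, shCREPT minus shControl (vertical), of the 4 genes under 5 settings (horizontal), with 95% intervals from limma. CDH5 and HEY1 stay under −1 in each, and the interval of KDR includes 0 under median-of-ratios rescaling.

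Ratios between 2 genes in the same library do not depend on the factor by which a library was scaled, so they show which of the 4 genes moved by different amounts. The ratio of CDH5 to KDR was 3.11, 3.0 and 2.89 in shControl and 1.34, 1.37 and 1.36 in shCREPT. The groups lay far apart against their spread, from 3.0 ± 0.110 to 1.36 ± 0.0128 (SD, n = 3), so VE-cadherin transcript was down further than VEGF receptor 2 transcript in each shCREPT library. The ratio of KDR to HEY1 went from 0.772 ± 0.0913 to 1.93 ± 0.456, and that of ACE to HEY1 from 0.304 ± 0.0207 to 0.535 ± 0.1, also without overlap. By contrast, the ratio of CDH5 to HEY1 was 2.16, 2.25 and 2.52 in shControl and 3.3, 2.26 and 2.3 in shCREPT. These values overlap, with the high one in shCREPT replicate 1, where HEY1 was lowest and CDH5 highest.

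The ratios to ACE were less settled. CDH5 over ACE was 7.67, 7.28 and 7.84 in shControl and 7.6, 4.23 and 3.63 in shCREPT, where replicate 1, the library with the lowest ACE value, lay inside the shControl range. KDR over ACE was 2.47, 2.43 and 2.71 in shControl against 5.66, 3.09 and 2.66 in shCREPT, again with overlap. On the log2(value + 1) scale the test of CDH5 minus KDR, CDH5 minus ACE, KDR minus HEY1 and ACE minus HEY1 gave an exact permutation p of 0.1 each (adjusted p = 0.15 over 6 pairs). CDH5 minus HEY1 gave an exact p of 0.8 and KDR minus ACE of 0.7 (adjusted p = 0.8 for both). Because of the added 1, these tested differences do depend on library scaling, unlike the ratios of values. No pair could pass 0.05 in this design, and a p that misses it does not show that 2 genes moved alike. With no pseudocount, a setting chosen after the data were seen, the CDH5 and ACE difference also overlapped between groups (exact permutation p = 0.2, adjusted p = 0.24).

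**Figure D4:**
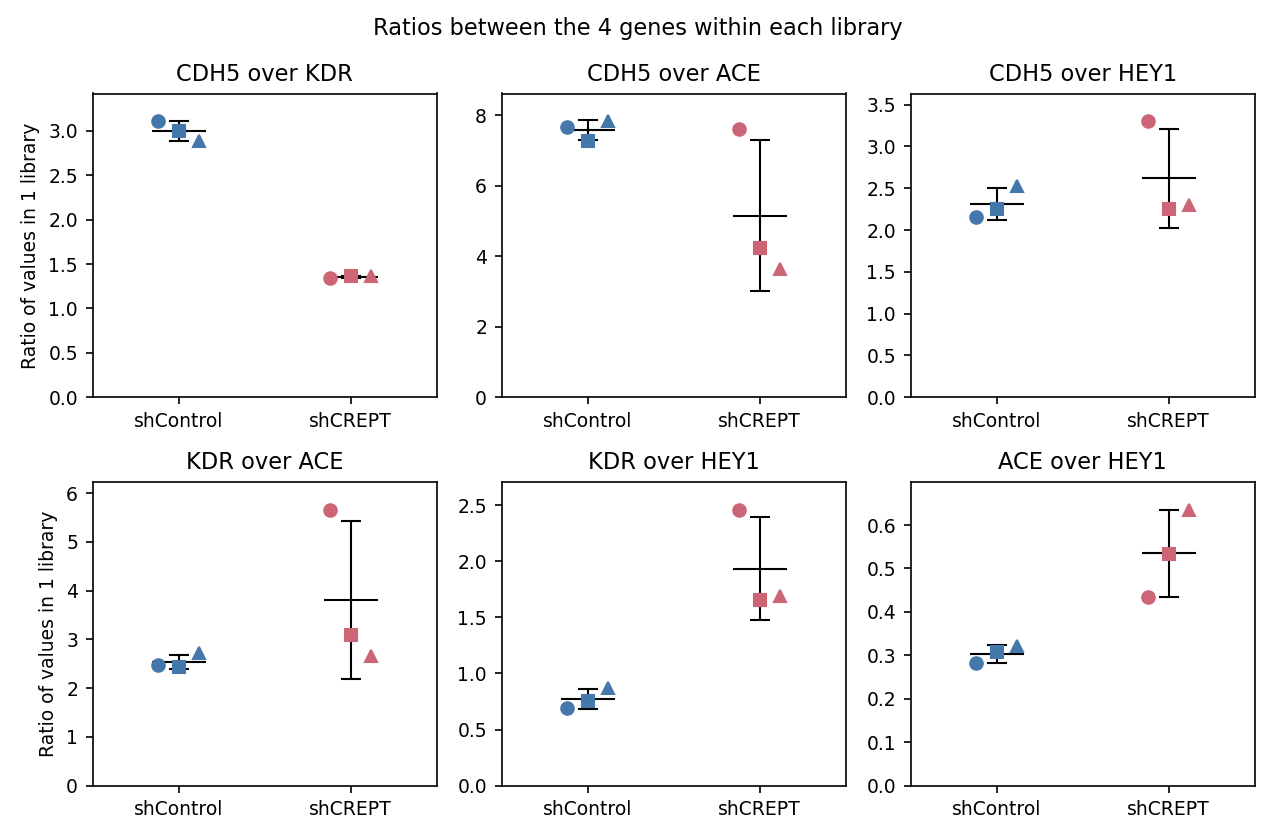
Ratio of the values of 2 genes in the same library (vertical, linear) for the 6 pairs among CDH5, KDR, ACE and HEY1. Circles, squares and triangles are replicates 1, 2 and 3 with the mean and SD in black; CDH5 over KDR falls from 3.0 to 1.36 with no overlap, while CDH5 over HEY1, CDH5 over ACE and KDR over ACE overlap between groups.

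The genes whose profile over the 6 libraries was most like each of the 4 were found by the root mean square difference of log2(value + 1), after subtracting each gene's shControl mean. All listed genes had been selected for the same contrast, so likeness is a description. For CDH5 the closest were SCRG1, NEFL, the light neurofilament subunit, and SEPTIN4, with differences of 0.0682, 0.093 and 0.0998. NEFL and SEPTIN4 were 4.57-fold and 4.71-fold lower in shCREPT. SCRG1 was 48.8-fold lower, from 3.58 ± 0.157 to 0.0733 ± 0.00577 (SD, n = 3), so its profile is near that of CDH5 on the log2(value + 1) scale and not in the fold of the values. For KDR they were the homeobox factor PITX1 (0.0468), CSGALNACT1, an enzyme of chondroitin sulphate synthesis (0.0492), and EPAS1, the hypoxia-inducible factor HIF-2 alpha (0.056). For ACE they were FAM114A1 (0.0691), AGPAT5 (0.0926) and the histone gene H3C6 (0.0942). For HEY1 they were the cannabinoid receptor CNR1 (0.0686), the Hedgehog co-receptor BOC (0.0766) and the natriuretic peptide receptor NPR3 (0.0774). HEY1 ranked 13 among the genes closest to CDH5, and CDH5 ranked 14 among those closest to HEY1, with a difference of 0.156 between them. ACE ranked 298 for KDR (0.246), and KDR ranked 242 for ACE.

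Around the 4 genes, 9 lists of vascular and Notch biology held 231 different genes, of which 36 have a row. Besides the 4 genes, 23 of these could be tested, and BHLHE41 did not pass. Of the 23, 9 rose and 13 fell, calls that 40.6% and 57.3% of all tested genes got. Their median change was −0.87, against −0.76 over all tested genes.

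Of 52 endothelial identity genes, 8 have a row. Apart from CDH5, KDR and ACE, 2 fell and 2 rose, calls that 57.3% and 40.6% of all tested genes got. APLN, the apelin peptide made by sprouting endothelial cells, fell from 3.91 ± 0.506 to 1.03 ± 0.247 and VCAM1, an adhesion molecule for leukocytes, from 1.59 ± 0.352 to 0.253 ± 0.0907 (SD, n = 3). NOSTRIN, a partner of endothelial nitric oxide synthase, rose from 1.35 ± 0.52 to 2.5 ± 0.277. ROBO4, an endothelial guidance receptor, had values of 1.25, 4.02 and 2.88 in shControl and 4.56, 4.52 and 6.3 in shCREPT. Its rise passed narrowly (log2 change 0.78, limma adjusted p = 0.0368) and was lost without any 1 library other than shControl replicate 2 (adjusted p = 0.0505 to 0.11) and with a pseudocount of 0.1 (adjusted p = 0.0579). CLEC14A, an endothelial surface lectin, was too low to be tested, at 0.18, 0.17 and 0.03 in shControl and listed at 0 in all 3 shCREPT libraries. The other 44 genes, FLT1, FLI1 and NOS3 among them, have no row. Endothelial genes in the table thus went in both directions.

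The Notch lists gave few rows. Of 42 ligands, receptors and processing genes only DTX2, a Deltex ubiquitin ligase that acts on Notch, has one. It rose 2.14-fold, from 38.2 ± 1.68 to 81.6 ± 9.16 (SD, n = 3). No row exists for NOTCH1 to NOTCH4, the DLL and JAG ligands or RBPJ. Of the 23 genes on the Notch target list, HEY1 fell and MYC, which many other signals also drive, rose 3.71-fold. The list was drawn up here, and whether its other genes with a row, BHLHE41 and HES2, answer to Notch was not tested. BHLHE41 had values of 20.65, 13.64 and 34.1 against 15.76, 13.69 and 11.84, with overlap (log2 change −0.61, limma adjusted p = 0.0952). HES2 was too low to be tested, at 0.65, 1.82 and 0.53 in shControl and 0.2, 0.2 and 0.48 in shCREPT. The closest relatives of HEY1, HEY2 and HEYL, and the classical targets HES1, HES5 and NRARP have no row, so the fall of HEY1 cannot be set beside them. Because HEY1 also responds to BMP signals, 23 BMP genes were listed, of which 4 have a row. BMPER, a secreted modulator of BMPs made by endothelium, fell 8.21-fold from 12.5 ± 2.19 to 1.53 ± 0.544. The BMP receptor BMPR1B fell 2.57-fold (call lost under median-of-ratios rescaling, limma adjusted p = 0.129), and the ligand BMP6 rose 3.52-fold to 2.2 ± 0.14 (SD, n = 3). ATOH8, too low to be tested, is up in the authors' deposited table.

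For the ligands of KDR, VEGFA fell 2.31-fold, from 559 ± 12.3 to 242 ± 3.76 (SD, n = 3). Under median-of-ratios rescaling its log2 change of −1.21 became −0.32 and kept its call, while KDR went to −0.17 and lost its call. The other 8 VEGF ligands and receptors of that list have no row. In the angiopoietin and ephrin list 5 of 16 have a row. ANGPT1, the ligand that stabilizes vessels through TEK, fell 4.23-fold and the ephrin EFNB1 2.65-fold, while the ephrin receptor EPHB2 rose 2.47-fold. EFNB3 and EPHB3 were too low to be tested and are down in the authors' deposited table.

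All 8 listed genes of the 25 for vascular mimicry were tested. CDH5, KDR, VEGFA, EPAS1, PTGS2 and IGFBP7 fell, and F3 and GDF15 rose (median −0.98). Without CDH5 and KDR, 4 fell and 2 rose, with a median of −0.82, against −0.76 over all tested genes. Of all tested genes, 57.3% were called lower and 40.6% higher. F3, tissue factor, rose 3.0-fold to 12.5 ± 2.24. EPAS1 fell 2.04-fold to 29.3 ± 2.99 (SD, n = 3 throughout). Median-of-ratios rescaling ended the calls of EPAS1 and PTGS2 (limma adjusted p = 0.218 and 0.415). EPHA2, MMP2, MMP14 and TWIST1 have no row.

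Of 28 genes of the renin-angiotensin and kinin system, 3 have a row. BDKRB1, the inducible receptor for kinin fragments, rose 2.62-fold, from 2.7 ± 0.451 to 7.08 ± 0.75 (SD, n = 3). ACE, the other member tested, degrades kinins and fell. AGT, the precursor of angiotensin, was too low to be tested, at 1.47, 0.85 and 1.01 in shControl and 0.42, 0.39 and 0.43 in shCREPT. In the list of 30 cadherins and catenins, 7 have a row. CDH5 and the 3 others tested all fell, a call that 57.3% of all tested genes got. CDH11, a mesenchymal cadherin, fell 2.47-fold from 75.1 ± 1.19 to 30.4 ± 2.57, CDH6 2.53-fold and CDH15, the muscle cadherin, 5.73-fold. CDH5 had the largest change of the 4 on the log2(value + 1) scale, which shrinks changes of small values. In fold CDH15 fell further, 5.73-fold from a mean of 1.72 in shControl, against 4.66-fold for CDH5. Of the 3 too low to be tested, CDH12 is down and CDH3 and CDH20 are up in the authors' deposited table. CDH2 and the catenins have no row.

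**Figure D5:**
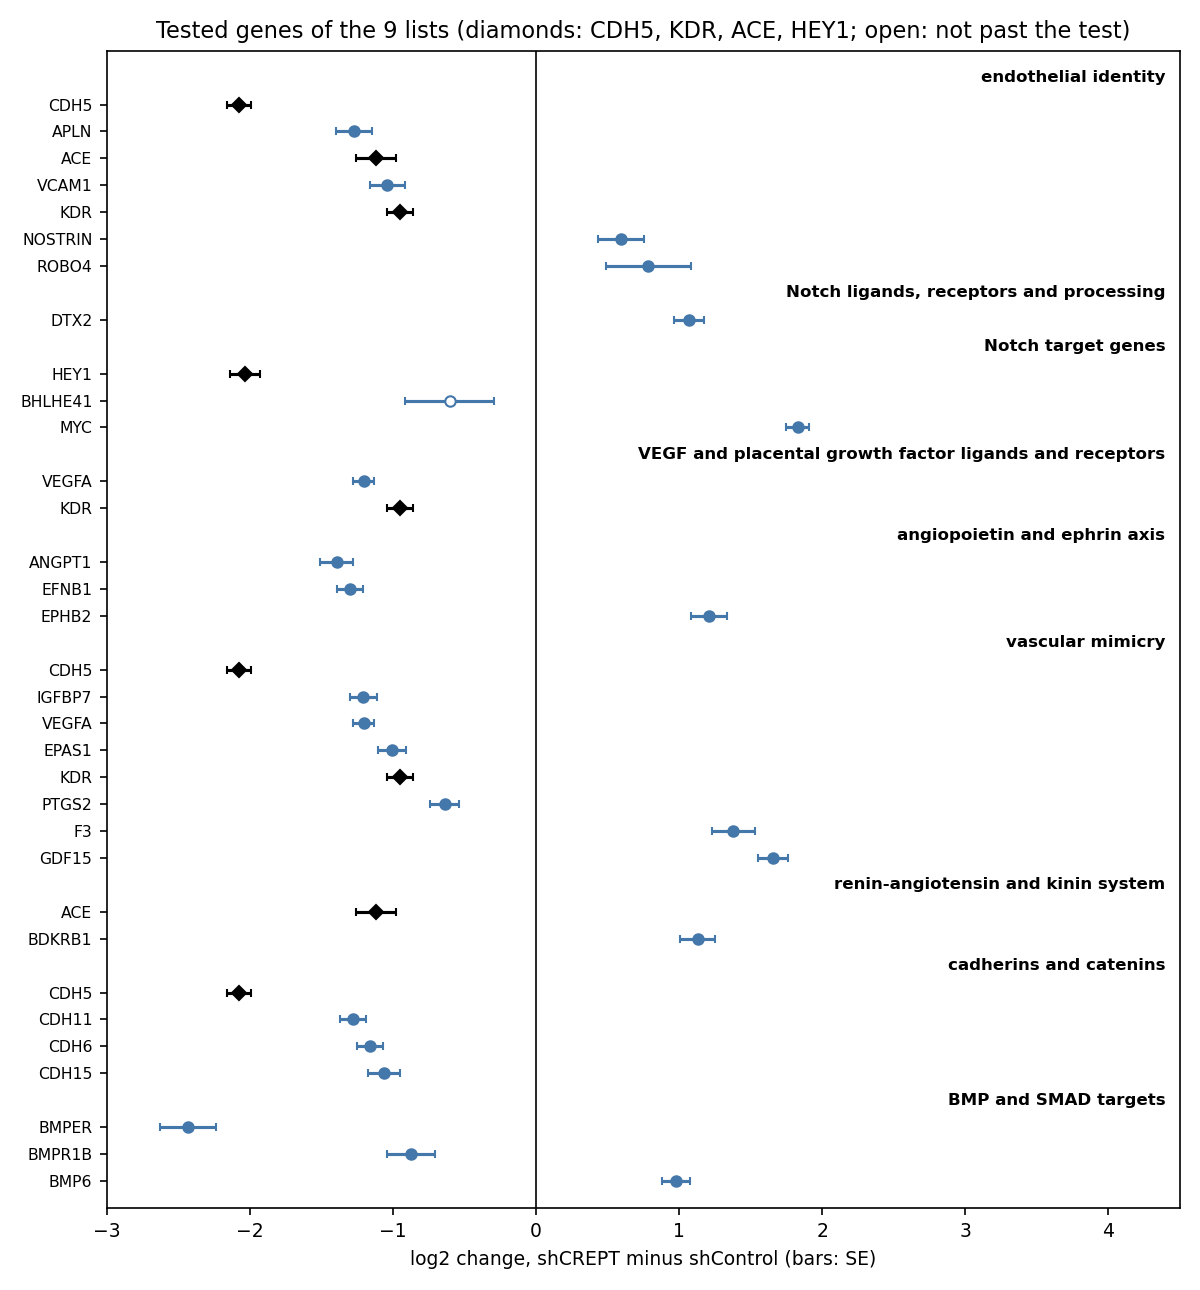
Log2 change, shCREPT minus shControl (horizontal, bars SE), of every tested gene in the 9 lists; diamonds are CDH5, KDR, ACE and HEY1, and an open symbol did not pass an adjusted p of 0.05. Genes lie on both sides of 0 in the endothelial, Notch target and vascular mimicry lists. The 4 tested cadherins, CDH5 among them, lie under 0, where 57.3% of all tested genes were called.

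Markers of other cells that share these genes were few. The 2 of 15 endothelial markers with a row, ROBO4 and CLEC14A, summed to between 1.43 and 4.19 in shControl and 4.52 and 6.3 in shCREPT. Nearly all of that sum is ROBO4, whose rise was lost without any 1 library other than shControl replicate 2, while CLEC14A was lower in shCREPT, as CDH5 and KDR were. Of 10 pericyte and smooth muscle markers, KCNJ8 fell 2.24-fold (limma adjusted p = 0.118 under median-of-ratios rescaling) and TAGLN was too low to be tested. None of 10 macrophage, 8 T cell and 5 platelet markers has a row. Of 10 astrocyte and glioma markers, GFAP, S100B and SLC1A3 fell, GFAP from 434 ± 13.5 to 45.5 ± 3.75 (SD, n = 3), and SLC1A3 lost its call under median-of-ratios rescaling (limma adjusted p = 0.23). The other 7 have no row. The summed level of GFAP, S100B and SLC1A3 was 498.32 to 528.49 in shControl, most of it GFAP, and 72.53 to 88.86 in shCREPT. These 3 glial markers thus fell beside the 4 genes, a call that 57.3% of all tested genes got. Their part in the result was not tested.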

How the data were processed

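The 6 libraries of U87MG total RNA were made, per the labels' protocols, with NEBNext Ultra reagents after a column kit. HISAT2, HTSeq and the build GRCh38 are named, with no version, per the submitters' processing notes. The deposited table holds, per the file headers, a normalized signal per library with 2 decimals, whose unit and depth are not given in the sources used here. It also holds the authors' fold (a ratio) with its log2 form, their p-value before and after adjustment, and marks of significance and direction. All 1630 rows carry the mark.

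Here values were taken as log2(value + 1), and genes had to reach 1 in 3 or more libraries (1184 tested, 446 not). The comparison used limma 3.58.1 under R 4.3.3 without covariates, adjusted p-values by Benjamini-Hochberg over all tested genes, and called those under 0.05. Changes of low genes come out too small on this scale. No count test was possible without counts. Exact permutation tests used scipy 1.17.1 under Python 3.11.15. The limma step was run on simulated data in which most genes were unchanged. Nearly all genes of this table differ, so that run gives no error rate for it. Of the identifiers, 1549 matched GENCODE v29. The 2 most similar libraries differed in 96.0% of genes, so each counted once.

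The 4 genes, the 9 lists and the 6 marker lists were chosen with earlier results of these data known. A gene of the vascular mimicry list is not reported here and is left out of that list's counts. Genes named were the 4 genes, every listed gene of each list with up to 8 rows and the 8 with the smallest adjusted p of a longer one, and the 3 genes most like each of the 4; MT-RNR1 and genes without a row were named after their values were seen. Alternatives were other pseudocounts (0.1, 5), other filters, quantile normalization, median-of-ratios rescaling, the trend and robust options of limma, a replicate block, and each library left out in turn.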

Additional observations from a re-analysis of the deposited data

How the results depend on the processing

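CDH5, ACE and HEY1 kept their direction and call under every alternative that tested them. KDR kept its direction in all, and its call in all but median-of-ratios rescaling (−0.17, with factors from the listed genes alone). Whether this scaling or the deposited one lies nearer the true levels was not tested. The filter of 10 in 3 libraries left ACE out. Leaving out 1 library gave log2 changes of −2.14 to −2.04 for CDH5, −1.02 to −0.91 for KDR, −1.23 to −0.98 for ACE and −2.10 to −1.96 for HEY1. The count of 1159 called genes became 485 under that filter, which tests 487 genes, and 1137 to 1152 without 1 library.

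The difference CDH5 minus HEY1 (−0.04) turned sign with a pseudocount of 0.1 (0.14) and with none (0.16), grew to −0.33 with 5 (adjusted p = 0.12, exact permutation test), and ran from −0.18 to 0.036 without 1 library. KDR minus ACE (0.17) turned with a pseudocount of 5 (−0.12) and ran from −0.042, without shCREPT replicate 1, to 0.30. The signs of the other 4 pairs held. BHLHE41 turned to 0.23 under median-of-ratios rescaling and passed without shControl replicate 2 (−0.91). Deviations of libraries with the same number were not alike (r = −0.109, 0.018 and −0.179 across genes), and the replicate block called 1156 genes and changed no call of the 4 genes (KDR limma adjusted p = 0.0011).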

Other observations

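Within 1000000 bases of the 4 genes few other genes have a row, and they did not share 1 direction. None of 39 annotated genes near HEY1 has a row. Of 40 near KDR, 3 have one. PDGFRA, a receptor tyrosine kinase 780 kilobases away, fell 5.55-fold from 52.7 ± 3.41 to 9.48 ± 0.862 (SD, n = 3), and CRACD rose 2.78-fold. GSX2, a homeobox gene, has a log2 fold of −1.93 in the authors' deposited table, while its values were 1.29, 0.67 and 1.35 in shControl and 0.99, 0.94 and 0.78 in shCREPT, which overlap.

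Of 69 genes near CDH5, 5 have a row. BEAN1, 22.5 kilobases away, fell 2.99-fold, from 1.55 ± 0.146 to 0.52 ± 0.21, and HSF4, NOL3 and PLEKHG4 fell 2.56-fold, 1.92-fold and 4.25-fold. RRAD rose 2.37-fold. Under median-of-ratios rescaling BEAN1, HSF4, NOL3 and PLEKHG4 no longer passed (limma adjusted p = 0.059, 0.146, 0.631 and 0.0865). Of 78 genes near ACE, MAP3K3 has a row and rose 2.15-fold, from 6.12 ± 1.21 to 13.2 ± 1.06 (SD, n = 3). The genes near the 4 were looked up after the data were seen.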
